A study of Mus musculus with 34 samples.

Results

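The mitochondrial genome of the mouse encodes 13 proteins, and these were followed here in RNA sequencing of cumulus cells (CCs), the somatic cells around the oocyte in the ovarian follicle. The genes were taken as every row of the count table whose chromosome is MT. This gave 13 of 25965 entries, all protein-coding. The GENCODE M21 annotation of GRCm38 also places 2 rRNA and 22 tRNA genes on MT. None of these is among the rows, so protein-coding genes could not be set against rRNA genes, and rRNA and tRNA are not analysed here.

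All animals were C57BL/6J (B6) females that entered the protocols at 8 weeks of age and were superovulated before CCs were collected. In the pharmacological protocol, mice were injected intraperitoneally for 16 days. The 16 C group (n = 3) received saline, and the 16 L group (n = 5) received leptin at a daily total of 100 μg. In the diet-induced obesity protocol they were fed chow diet (CD, 11% of energy from fat) or high-fat diet (HFD, 58%, both as the labels give them, while the methods of the study give slightly higher values) for 4 weeks (CD n = 5, HFD n = 5) or 16 weeks (CD n = 6, HFD n = 7). Another 3 libraries came from mice labelled as low weight gainers after 16 weeks of HFD, whose body weights are not analysed here. Each of the 34 libraries was made from about 50 cells by Smart-seq2, which captures polyadenylated RNA with oligo-dT, and the cDNA was amplified by 9 cycles of PCR.

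Mitochondrial DNA is transcribed from both strands into long precursors. Excision of the tRNAs that lie between most genes releases the mRNAs, most of which then receive a short poly(A) tail. Their products sit in the inner membrane as core subunits of complex I (ND1 to ND6 and ND4L), complex III (CYTB), complex IV (CO1 to CO3) and complex V (ATP6 and ATP8), alongside many subunits encoded in the nucleus. In CCs, mitochondria take part in the energy metabolism that supports the oocyte. In whole-cell RNA, fewer cells of a type, fewer mitochondria per cell and less RNA per mitochondrion cannot be told apart.

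Stretches of mitochondrial DNA have also been copied into the nuclear genome, and this matters for counting because a read from a copied stretch matches 2 places. Among the transcripts of GENCODE M21, 7 pseudogenes on the minus strand of chr1:24611535-24616197 (GRCm38) carry consecutive mitochondrial sequence from mt-Co1 to mt-Nd4. The first 60 bases of mt-Co2 (MT:7013-7696), a core subunit of complex IV, are shown with those of its copy Gm28661 because the 2 could not be told apart over 681 aligned bases, and those of mt-Nd3 (MT:9459-9806), a complex I subunit, with Gm28438 because they differ at 1 base. Sequences are from GENCODE M21, 5′ to 3′, and capitals mark bases that differ between gene and copy.
mt-Co2: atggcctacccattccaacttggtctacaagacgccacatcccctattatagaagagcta
Gm28661: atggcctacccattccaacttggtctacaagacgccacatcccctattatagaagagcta
mt-Nd3: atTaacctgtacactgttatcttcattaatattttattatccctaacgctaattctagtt
Gm28438: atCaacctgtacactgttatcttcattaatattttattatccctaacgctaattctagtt

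The annotated copies elsewhere differ more from the mitochondrial genes. A window of mt-Cytb (MT:14145-15288), the mitochondrial subunit of complex III, is shown with Gm11410 on chromosome 4, to which it is 92.9% identical over 1142 bases. A window of mt-Co1 (MT:5328-6872), the catalytic subunit of complex IV, is shown with Gm13340 on chromosome 2, to which it is 97.6% identical over its whole 1545 bases. Each is the first window of 60 bases with the number of differences that the whole alignment gives, namely 4 and 1.
mt-Cytb: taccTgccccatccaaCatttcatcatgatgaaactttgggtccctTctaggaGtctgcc
Gm11410: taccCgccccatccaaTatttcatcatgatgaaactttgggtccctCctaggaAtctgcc
mt-Co1: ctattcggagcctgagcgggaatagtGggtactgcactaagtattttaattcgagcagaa
Gm13340: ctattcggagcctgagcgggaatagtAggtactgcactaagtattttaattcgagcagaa

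Within mt-Nd4 (MT:10167-11544), a complex I subunit, the copy Gm28439 holds the first 876 bases without a difference and then ends. Bases 847 to 906 are shown with the copied part in capitals. The gene mt-Atp8 (MT:7766-7969), a small subunit of complex V, ends within mt-Atp6 (MT:7927-8607), and its last 60 bases are shown with the 43 shared bases in capitals. The last 30 bases of mt-Cytb are shown because its reading frame ends in an incomplete stop codon, the capital T, which is known to be completed by the poly(A) tail that oligo-dT captures.
mt-Nd4: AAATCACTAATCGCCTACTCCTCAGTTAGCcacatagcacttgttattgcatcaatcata
mt-Atp8: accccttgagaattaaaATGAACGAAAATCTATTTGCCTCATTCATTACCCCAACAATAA
mt-Cytb: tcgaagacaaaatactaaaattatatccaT

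The 13 genes fell into a group of 7 with many counts and a group of 6 with very few. Levels are given as RPM, counts scaled to a library total of 1000000, and here also per kb of gene, so that genes of different length can be set side by side. The median over the 34 libraries was 5319 RPM per kb for mt-Cytb, 2102 for mt-Nd1 and 913 for mt-Co1. It was 488 for mt-Nd2, 459 for mt-Nd4, 347 for mt-Nd6 and 260 for mt-Nd5, which are all complex I subunits. A step followed, to 16.9 RPM per kb for mt-Atp6, 7.12 for mt-Co3, 5.66 for mt-Nd3, 4.28 for mt-Atp8, 3.83 for mt-Co2 and 0 for mt-Nd4l. The level of mt-Nd5 was above that of mt-Atp6 in 34 of 34 libraries. Neighbours on either side of the step were less clearly ordered. The level of mt-Cytb exceeded that of mt-Nd1 in 23 libraries, that of mt-Nd1 exceeded mt-Co1 in 23, and that of mt-Nd2 exceeded mt-Nd4 in only 12.

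The 6 genes with few counts together held 0.265% of the MT counts at the median, with a range over libraries of 0.0206% to 2.72%. The highest value belonged to 4-week HFD replicate 13. No count fell on mt-Nd4l, a complex I subunit, in 23 of 34 libraries, on mt-Atp8 in 12, on mt-Co3 in 3, and on mt-Co2 and mt-Nd3 in 2 each. A count of 0 allows up to 3 counts, which was between 0.227 and 2.72 RPM depending on the depth of the library.

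Of the 6, mt-Co2, mt-Atp6, mt-Co3, mt-Nd3 and mt-Nd4l had 98.0% to 100% of their 50-base windows in an annotated nuclear transcript. The chromosome 1 copies of mt-Co2, mt-Atp6, mt-Co3 and mt-Nd4l showed no mismatch over 681, 678, 783 and 294 bases. For mt-Atp8 no such window was found, since no pseudogene is annotated over most of it. It lies between the copied parts of mt-Co2 and mt-Atp6, and its last 43 bases are in the copy of mt-Atp6. Among the 7 genes with many counts the share of such windows was 0% for mt-Nd1, mt-Nd6 and mt-Cytb, 7.61% for mt-Nd5, 8.19% for mt-Nd2, 51.1% for mt-Co1 and 62.2% for mt-Nd4. Genes copied almost whole on chromosome 1 were thus among those with few counts, and genes copied in part or not at all, except mt-Atp8, among those with many. How reads that match 2 places were counted is not given in the sources used here, and its part in the low values was not tested. The chromosome 1 copy of mt-Nd4l, Gm10222, has a row of its own in the table, with 18 counts over all libraries. Values of the 6 genes are therefore uncertain as levels of their mRNA, and those of mt-Co1 and mt-Nd4 may miss part of the gene.

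**Figure D1:**
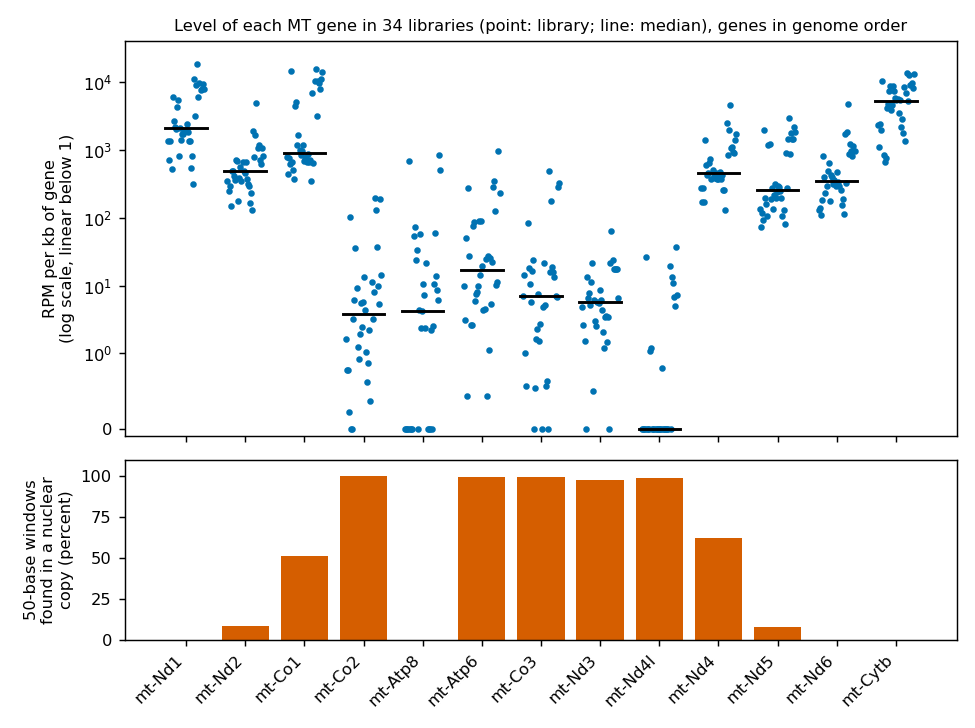
Upper panel, level of each MT gene (RPM per kb, logarithmic above 1 and linear below) in each of the 34 libraries, with the median as a line and genes in genome order. Lower panel, percent of the 50-base windows of each gene found in an annotated nuclear transcript; the medians of the 5 genes at 98.0% or more, and of mt-Atp8, lie at or below 16.9 RPM per kb, and those of the other 7 at or above 260.

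Further limits apply to single genes. The gene mt-Nd6 is the only 1 of the 13 on the minus strand of the table, it overlaps mt-Nd5 by 14 bases, and its mRNA is known to lack a regular poly(A) tail. Nextera XT libraries do not keep the strand of the RNA, so reads of mt-Nd6 and of transcripts from the opposite strand cannot be told apart. Overlaps of 7 bases between mt-Nd4l and mt-Nd4, and of 1 base between mt-Atp6 and mt-Co3, are too short to move a level by much.

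The share of all counts that fell on the 13 genes ranged from 0.335% to 7.72% over libraries with totals of 1104611 to 13207018 counts. With 5643 to 663212 MT counts per library, the half-width of the 95% Wilson interval of the share was at most 0.0387 percentage points. This interval covers counting error only, since reads amplified by PCR without molecular identifiers are not independent molecules. The spread between mice was far larger than this. Shares of 0.628%, 0.335% and 0.624% were found in 16 C replicates 1, 2 and 3. In 16 L they were 0.435%, 0.654%, 0.511% and 0.479% for replicates 18, 20, 21 and 23, but 4.71% for replicate 19. The 4-week CD libraries spread most, at 3.95%, 0.828%, 4.10%, 7.72% and 2.18% for replicates 1, 2, 7, 8 and 11. Replicate 2 of 4-week CD and replicate 19 of 16 L thus lay nearer to libraries of other groups than to their own. The 4-week HFD libraries lay closer together, with 4.70%, 3.83%, 3.57%, 4.47% and 5.25% in replicates 3, 4, 5, 13 and 14. The shares at 16 weeks were lower and more even. The 16-week CD libraries had a lowest share of 0.902%, a median of 1.43% and a highest of 2.31%. Those of 16-week HFD had 0.786%, 1.13% and 1.53%. The low weight gainers had 0.488%, 0.614% and 0.337% in replicates 21, 22 and 23.

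**Figure D2:**
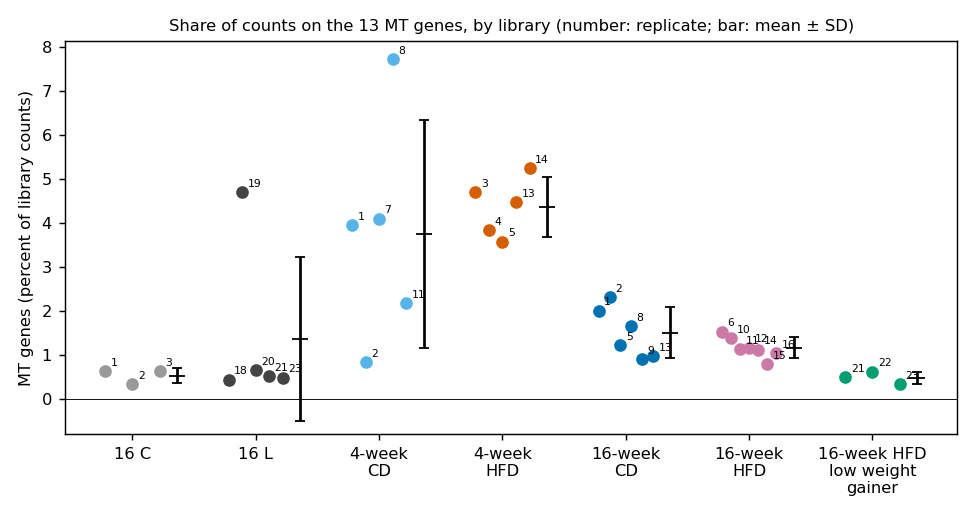
Percent of each library's counts on the 13 MT genes, by group; points are libraries with their replicate number, and bars are the mean ± SD. The low weight gainers (0.337% to 0.614%) lie below every 16-week HFD and 16-week CD library, and 16 L replicate 19 (4.71%) lies apart from the rest of its group.

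As group means the MT share was 0.529% ± 0.168 (SD, n = 3) in 16 C and 1.36% ± 1.87 (n = 5) in 16 L. It was 3.75% ± 2.596 (n = 5) in 4-week CD and 4.36% ± 0.674 (n = 5) in 4-week HFD. At 16 weeks it was 1.51% ± 0.577 (n = 6) on CD, 1.16% ± 0.238 (n = 7) on HFD and 0.480% ± 0.139 (n = 3) in the low weight gainers. The share sums over the genes under study and is given as a description, without a test. The low weight gainers did not overlap 16-week HFD or 16-week CD, and their mean was lower by 2.43-fold and 3.14-fold. The other 3 pairs of treated and control groups overlapped. At 4 weeks even the direction hung on 1 library, since the difference HFD minus CD was 0.61 percentage points with all libraries and −0.12 without CD replicate 2. Without replicate 19, the mean of 16 L was 0.520% ± 0.0946 (n = 4), next to the 0.529% of 16 C.

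The make-up of the MT counts differed between libraries as well, and the part of mt-Co1 went with the MT share. In the 12 libraries with a share above 2%, mt-Co1 held 22.8% to 47.8% of the MT counts, and in the other 22 it held 9.45% to 22.3%. Over the 34 libraries, which differ in group and depth, r was 0.74 between this part and the log2 share. Counts of mt-Co1 enter both values, so the 2 are not independent. In the 16-week HFD libraries mt-Cytb held 51.8% to 65.3% of the MT counts, mt-Nd1 10.8% to 19.9% and mt-Co1 9.45% to 13.2%. The low weight gainers had a like part of mt-Cytb, at 52.1% to 59.7%, and more mt-Co1. In 16-week CD replicates 5, 8, 9 and 13, mt-Cytb held 69.4%, 60.6%, 49.9% and 54.3%. In the 4-week HFD libraries mt-Co1 led, with 33.9% to 42.2%, and mt-Cytb held 21.3% to 31.2%. The 4-week CD libraries were mixed, with mt-Co1 between 11.9% and 39.7% and mt-Nd1 between 21.2% and 37.1%. In 16 C mt-Cytb led again, at 37.6% to 44.5%.

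Several libraries had a make-up unlike that of their group. In 16-week CD replicates 1 and 2, mt-Co1 held 34.8% and 34.6% of the MT counts and mt-Cytb only 24.1% and 23.8%. Their shares of 2.01% and 2.31% were the highest of the 16-week libraries. In 16 L replicate 19, mt-Co1 held 47.8%, the highest value of all 34 libraries. Across 9280 nuclear genes with a mean above 10 RPM, the library closest to 16 L replicate 19 was 4-week HFD replicate 13 (r = 0.9504 on log2(RPM + 1)). The closest to 16-week CD replicate 1 was replicate 2 (r = 0.986). In 16 L replicates 20, 21 and 23, mt-Nd1 led with 39.3%, 41.1% and 41.2%, and mt-Cytb held 14.8%, 15.0% and 18.5%. The 4-week CD replicate 2 shared this pattern, with 37.1% on mt-Nd1 and 19.04% on mt-Cytb, and by nuclear genes it was closest to 16 L replicate 20 (r = 0.916). By contrast, 16 L replicate 18 had 51.1% on mt-Cytb.

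**Figure D3:**
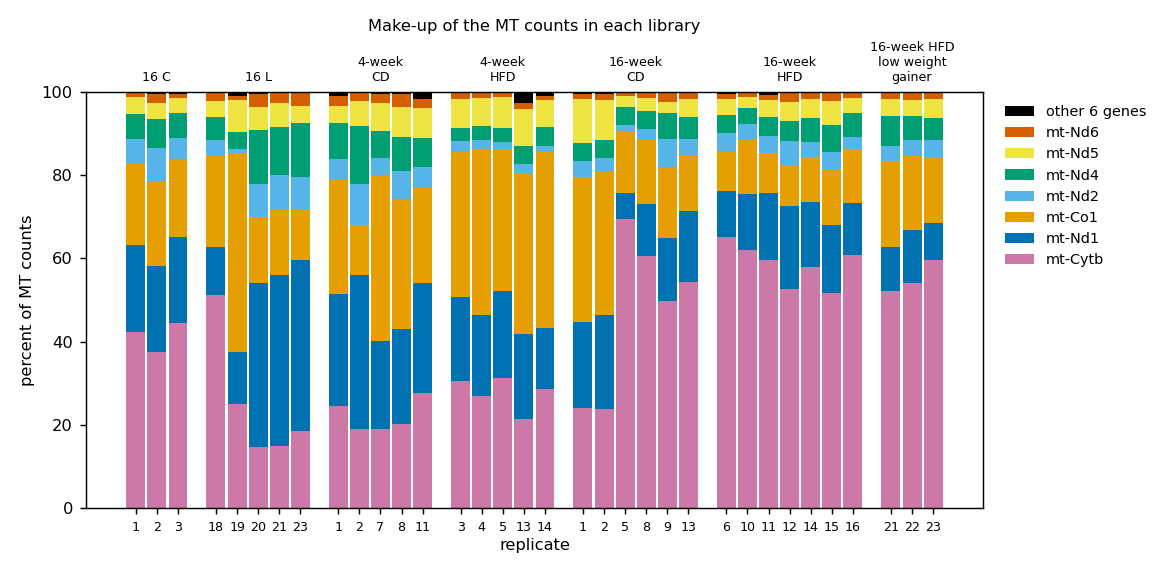
Percent of the MT counts of each library held by each of the 7 genes with many counts and by the other 6 genes together; each bar is a library, labelled by its replicate number under its group. Gene mt-Cytb holds 51.8% to 65.3% in 16-week HFD, mt-Co1 33.9% to 42.2% in 4-week HFD, and mt-Nd1 39.3% to 41.2% in 16 L replicates 20, 21 and 23.

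These libraries also differed in nuclear markers. Markers of oviduct epithelium summed to 31800.2 RPM in 16 L replicate 18, to between 889 and 2463 RPM in replicates 20, 21 and 23, and to 158 RPM in replicate 19. In the other 6 groups they summed to between 130 and 492.9 RPM. Markers of red blood cells reached 14513 RPM in 16 L replicate 18 and 7605 RPM in replicate 21. Cumulus markers such as Ptx3 and Has2 summed to 769 RPM in 16 L replicate 18 and to between 3188 and 8161 RPM in all other libraries, with all 13 detected in every group except the low weight gainers, where Amh was at 0. Oocyte markers summed to 470 RPM in 4-week HFD replicate 5 and to at most 18.8 RPM elsewhere. A list of 10 stress genes summed to between 585 and 1038 RPM in 4-week CD and between 326 and 669 RPM in 4-week HFD. The sums were 477 and 427 RPM in 16-week CD replicates 1 and 2, and 141 to 218 RPM in the other 16-week CD libraries. In 16 L they were 186, 581, 510, 632 and 600 RPM in replicates 18, 19, 20, 21 and 23, so high sums also occurred in libraries with a low MT share. They were 165 to 198 RPM in 16 C, 87.0 to 199 RPM in 16-week HFD and 121 to 189 RPM in the low weight gainers. The part of any of these in the MT values was not tested.

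Across the 34 libraries the levels of the 7 genes moved together to different degrees. On log2(RPM + 1), Pearson's r was 0.960 between mt-Co1 and mt-Nd5, 0.949 between mt-Nd4 and mt-Nd6 and 0.949 between mt-Nd1 and mt-Nd4. It was lowest for pairs with mt-Cytb, at 0.517 with mt-Nd2 and 0.574 with mt-Nd1. These values describe libraries that differ in group, depth and cell make-up. The MT share itself correlated at r = −0.57 on the log2 scale with the share of counts on the 50 most abundant nuclear genes, and at 0.50 with the summed stress genes. Other measures came close, with −0.48 for nuclear subunits of the respiratory complexes, 0.45 for the number of genes with a count and 0.40 for cumulus markers. It was 0.39 for nuclear genes of mtDNA expression, −0.30 for oviduct markers, 0.25 for library totals and 0.17 for oocyte markers. Shares of the same library total are not independent.

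The comparison of low weight gainers with 16-week HFD asked how CCs of mice that gained little weight differed from those of mice on the same diet. All 7 MT genes with many counts had lower estimates in the low weight gainers, and 6 of them passed the test (edgeR quasi-likelihood F-test, Benjamini-Hochberg adjusted p under 0.05 over all genes). With mt-Co3, 7 of the 10 MT genes tested were called, all lower. The call of mt-Co3 adds no support. It had 3, 2 and 0 counts in the low weight gainers and passed the filter on low counts through 16-week HFD alone. The background was large, since 20.7% of the 11258 genes tested were called in either direction and 9.93% were called lower. The median log2 fold change was −1.57 over the 10 MT genes tested, −1.43 over the 7 with many counts and −0.03 over all genes. The genes mt-Atp8, mt-Nd3 and mt-Nd4l were too low to be tested.

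The largest estimate among the genes with many counts was that of mt-Nd1, the complex I subunit next to the rRNA genes. Its level was 520 RPM in low weight gainer replicate 21, 784 in replicate 22 and 299 in replicate 23. In 16-week HFD its lowest level was 1282 RPM, the median 1745 and the highest 2318. The groups did not overlap, and the log2 fold change was −1.85 ± 0.36 (SE, adjusted p = 0.00312). For mt-Nd2, another subunit of complex I, the low weight gainers had 173, 238 and 136 RPM. The 16-week HFD libraries ran from 311 over a median of 481 to 691 RPM, again without overlap, and the log2 fold change was −1.59 ± 0.33 (adjusted p = 0.00443).

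For mt-Nd5 the low weight gainers had 194, 237 and 148 RPM, below the 358 to 583 RPM of 16-week HFD (median 450). This gave a log2 fold change of −1.43 ± 0.26 (adjusted p = 0.00224). For mt-Nd6 they had 81.0, 98.7 and 58.5 RPM against 134 to 244 RPM (median 166). The log2 fold change was −1.30 ± 0.27 (adjusted p = 0.0045). The mildest call was mt-Nd4, with 355, 354 and 178 RPM against 518 to 645 RPM (median 549) and a log2 fold change of −1.11 ± 0.27 (adjusted p = 0.00943). All 5 complex I genes with many counts were thus lower without overlap. The share of all genes whose groups did not overlap was not computed, so this is a description only.

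The subunit of complex III, mt-Cytb, had 2540, 3325 and 2010 RPM in low weight gainer replicates 21, 22 and 23. In 16-week HFD it ran from 4072 over a median of 6462 to 9980 RPM. The groups did not overlap and the log2 fold change was −1.56 ± 0.35 (adjusted p = 0.00676). The complex IV subunit mt-Co1 behaved less clearly, with 1011, 1084 and 536 RPM against 1036 to 1813 RPM (median 1228). Here the groups overlapped, and the log2 fold change of −0.75 ± 0.31 missed the threshold (adjusted p = 0.0944). As a share of the MT counts, mt-Co1 was higher in the low weight gainers (15.9% to 20.7%) than in 16-week HFD (9.45% to 13.2%), without overlap. By this measure 11 of the 13 MT genes overlapped.

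Among the genes with few counts, mt-Co3, a core subunit of complex IV, had 3, 2 and 0 counts in the low weight gainers, and 0 to 16.8 RPM in 16-week HFD (median 3.76). It was called lower (adjusted p = 0.0219), but it lost the call without low weight gainer replicate 21, 22 or 23. Pooled over libraries the ratio of low weight gainers to 16-week HFD was 0.0625 (exact 95% counting interval 0.0200 to 0.150), and 0.107 without 16-week HFD replicate 15, which held 70 of the 136 counts. No count of mt-Atp8 was found in any low weight gainer, against 0.480 to 11.9 RPM in 16-week HFD. With a limit of 3 counts over the 3 libraries it was at least 19.6-fold lower by pooled counts. This bound, like the interval of mt-Co3, treats reads as independent and leaves out the spread between mice. The bound of mt-Atp8 fell to 8.78-fold without 16-week HFD replicate 6, which held 65 of the 100 counts, and to 10.6-fold without low weight gainer replicate 21. For mt-Co2 the log2 fold change was −2.17 ± 0.88 (adjusted p = 0.0838) and for mt-Atp6, the proton channel subunit of complex V, −1.98 ± 1.34 (adjusted p = 0.326). When each library was left out, that of mt-Co2 ran from −2.95 to −1.56 and passed the test without 16-week HFD replicate 16 (adjusted p = 0.0468). That of mt-Atp6 ran from −5.72, without low weight gainer replicate 22, to −1.33.

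**Figure D4:**
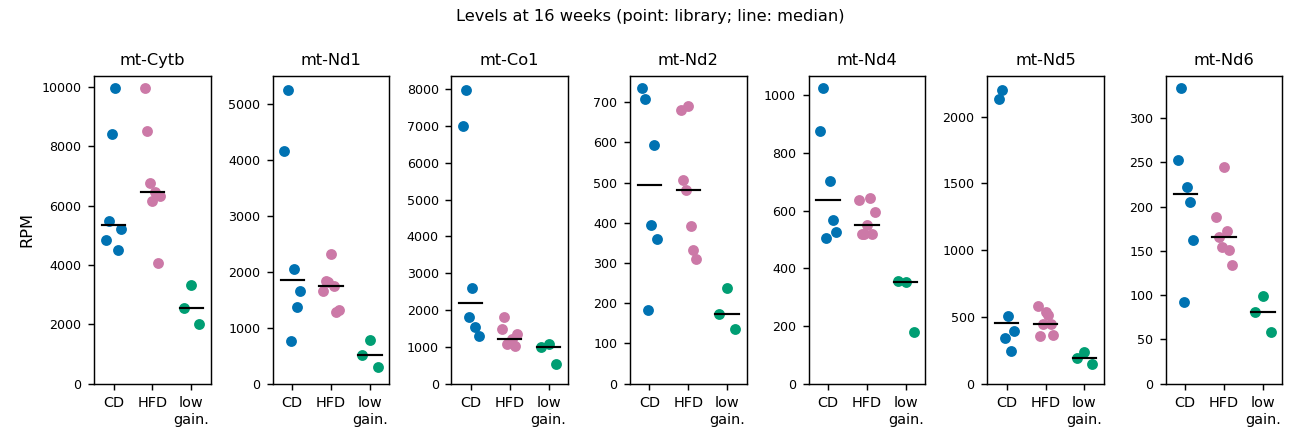
Level (RPM, linear scale from 0, a separate scale for each gene) of the 7 MT genes with many counts in the 16-week CD, 16-week HFD and low weight gainer libraries; points are libraries and lines are medians. In all panels but that of mt-Co1, the low weight gainers lie below every 16-week HFD library.

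The count of calls in this comparison depended on single libraries. Leaving out each library in turn gave 4 to 8 calls, with 4 without low weight gainer replicate 23, whose MT share was the lowest of the group. In that fit, which called 596 of 11492 genes, mt-Nd4 (adjusted p = 0.0811), mt-Cytb (0.0599) and mt-Co3 (0.113) lost their call. A fit of all 34 libraries together gave 1 call. Cumulus markers summed to 5561 to 6414 RPM in the low weight gainers and 3188 to 4436 RPM in 16-week HFD, without overlap. Single cumulus markers went both ways, with 2 called higher and 3 lower of 11 tested and a median log2 fold change of −0.81. Markers of macrophages and leukocytes (316 to 343 against 105 to 632 RPM), red blood cells (6.82 to 136 against 0 to 269 RPM), oviduct epithelium (143 to 412 against 160 to 492.9 RPM), theca and stroma (2.22 to 10.7 against 0.429 to 29.2 RPM) and oocytes (0 to 0.759 against 0 to 1.90 RPM) overlapped between the groups. The 50 most abundant nuclear genes took 23.4% to 27.0% of the counts in the low weight gainers and 24.8% to 31.1% in 16-week HFD. The part of these in the lower MT levels was not tested.

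Against 16-week CD, the low weight gainers also had negative log2 fold changes for all 10 MT genes tested, but none passed the edgeR test. The sign of mt-Atp8 was fixed beforehand. It had no count in the low weight gainers and passed the filter on low counts through 16-week CD alone. This comparison shares the low weight gainer libraries with the one above. At an unadjusted p under 0.05 there were 9 of the 10, with mt-Atp8 among them, where 11.2% of all genes passed that rule. DESeq2 called 4, against 2.15% of all genes, and limma-voom 2, against 1.84%. By edgeR with adjustment, only 0.00861% of the 11620 genes tested were called, which is 1 gene. The log2 fold changes of the 7 genes with many counts lay between −1.91 and −1.004, with adjusted p between 0.311 and 0.44. The level of mt-Cytb in 16-week CD ran from 4499 over a median of 5362 to 9971 RPM, above the 2010 to 3325 RPM of the low weight gainers. Its log2 fold change was −1.12 ± 0.50 (adjusted p = 0.44). The level of mt-Nd2 in 16-week CD ran from 182 to 735 RPM (median 494) and overlapped, with a log2 fold change of −1.21 ± 0.45 (adjusted p = 0.365). Without 16-week CD replicates 1 and 2, the MT share of 16-week CD was 1.18% ± 0.338 (n = 4) and still above every low weight gainer, and 0 MT genes were called by edgeR. No count of mt-Atp8 was found in the low weight gainers. By pooled counts, which leave out the spread between mice, this puts it at least 33.5-fold below 16-week CD with a limit of 3 counts over the 3 libraries. The bound was 21.6-fold without CD replicate 2, which held 82 of the 162 counts, and 18.1-fold without low weight gainer replicate 21. However, CD replicate 9 also had 0 counts and CD replicate 13 had 2, so the groups overlapped for mt-Atp8.

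**Figure D5:**
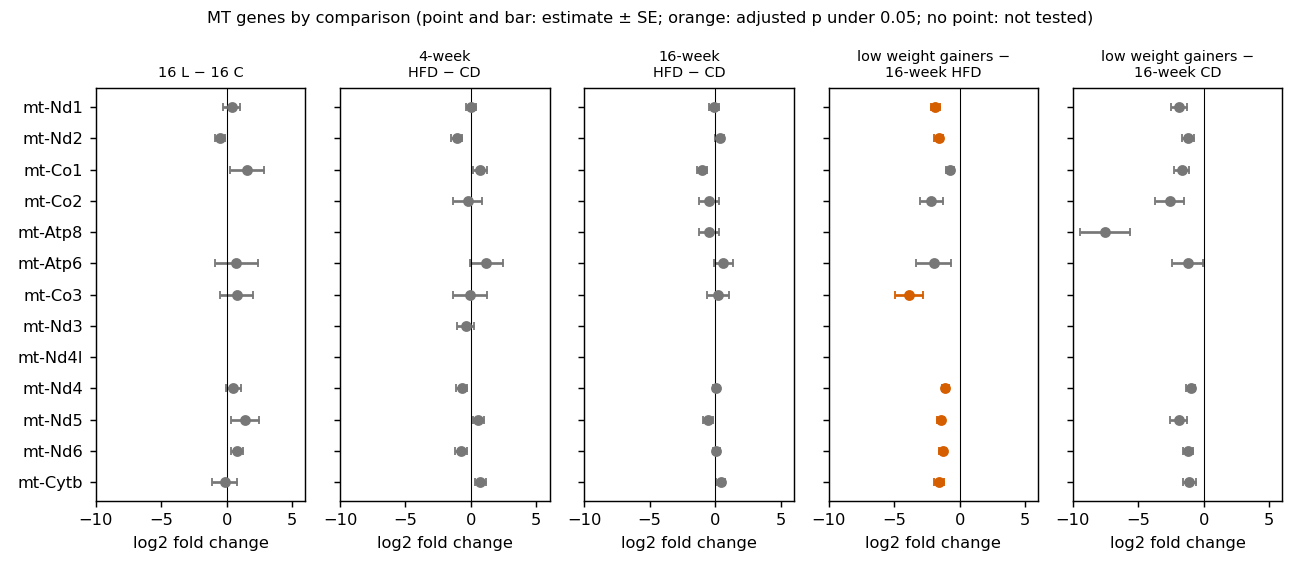
Log2 fold change of each MT gene in 5 comparisons (point, estimate; bar, SE), with genes whose adjusted p is under 0.05 in orange and no point for genes that failed the filter on low counts. The 7 orange points are all in the comparison of low weight gainers with 16-week HFD, between −3.88 and −1.11. The lowest, of mt-Co3, rests on 3, 2 and 0 counts in the low weight gainers. The point of mt-Atp8 against 16-week CD rests on low weight gainers without a count and is no measure of size.

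The comparison of 16-week HFD with 16-week CD addressed diet in late obesity. None of the 11 MT genes tested passed the edgeR test, where 0.0276% of 10861 genes (3 genes) did. At an unadjusted p under 0.05 there was 1 gene of 11, mt-Co1, where 25.3% of all genes passed that rule. DESeq2 called it, with 9.72% of all genes, and limma-voom called 0. Its level was 1300 RPM at the lowest, 2204 at the median and 7990 at the highest in CD, and 1036, 1228 and 1813 RPM in HFD, so the groups overlapped. The log2 fold change was −1.001 ± 0.37 (adjusted p = 0.116). It ran from −1.16 to −0.69 when each library was left out. Without replicates 1 and 2 of CD it was −0.26 (adjusted p = 0.755), but these were set aside after the data were seen because their MT values stood apart, so that a smaller difference was built into the choice. Without CD replicate 9 it was −1.11 (adjusted p = 0.0452) in a fit that called 2222 of 10830 genes. As a share of MT counts, mt-Co1 was lower in HFD (9.45% to 13.2%) than in every CD library (13.5% to 34.8%). By this measure the other 12 MT genes overlapped, so this is a description of 1 gene. The difference in mean MT share, HFD minus CD, was −0.34 percentage points, and −0.018 points without CD replicates 1 and 2.

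At 4 weeks, which represents early obesity in this protocol, none of the 11 MT genes tested passed the edgeR test, against 4.26% of 11727 genes. At an unadjusted p under 0.05 there was 1 gene of 11, mt-Nd2, where 24.3% of all genes passed that rule. DESeq2 called 0, and limma-voom called 2, with 34.6% of all genes. The level of mt-Nd2 was 2005, 806, 1704, 5079 and 1122 RPM in CD replicates 1, 2, 7, 8 and 11. In HFD replicates 3, 4, 5, 13 and 14 it was 1232, 745, 645, 1094 and 851 RPM. The groups overlapped, and the log2 fold change was −1.09 ± 0.41 (adjusted p = 0.125). The spread in CD followed the MT share, and as parts of the MT counts 4 genes did not overlap between the groups. Gene mt-Nd2 held 4.16% to 9.73% of MT counts in CD and 1.62% to 2.62% in HFD. The other complex I genes mt-Nd1 (21.2% to 37.1% against 14.6% to 21.0%), mt-Nd4 (6.55% to 13.9% against 3.24% to 4.54%) and mt-Nd6 (2.05% to 3.22% against 0.949% to 1.35%) were likewise lower in HFD without overlap. Shares sum to 100%, so these 4 are not independent of each other or of mt-Co1 and mt-Cytb. By this measure the groups overlapped for the other 9 MT genes, and in RPM they overlapped for all 13. How often groups of this size fail to overlap was not computed, so this is a description only. Per length, mt-Nd1 stood 3.79 to 5.79 times above mt-Nd2 in CD and 8.34 to 12.6 times above it in HFD.

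In the leptin protocol, none of the 9 MT genes tested passed the edgeR test, where 8.56% of 11723 genes did. There were also 0 genes at an unadjusted p under 0.05, where 32.4% of all genes passed that rule, and 0 by DESeq2. With limma-voom and sample quality weights there were 4, with 63.8% of all genes called. Replicate 19 set the group values. The level of mt-Co1 was 1226, 688 and 1178 RPM in 16 C, 970, 1041, 792 and 578 RPM in 16 L replicates 18, 20, 21 and 23, and 22506 RPM in replicate 19. The log2 fold change was 1.53 ± 1.30 (adjusted p = 0.435) and turned to −0.99 without replicate 19. For mt-Nd5 it was 1.40 ± 1.05 (adjusted p = 0.376) and −0.44 without replicate 19. The level of mt-Cytb was 2655, 1259 and 2772 RPM in 16 C and 2226, 11845, 969, 764 and 884 RPM in 16 L replicates 18, 19, 20, 21 and 23, with a log2 fold change of −0.16 ± 0.96 (adjusted p = 0.926). That of mt-Nd1 was 0.40 ± 0.65 (adjusted p = 0.7). Gene mt-Nd6 did not overlap, with 56.8 to 71.7 RPM in 16 C and 95.7 to 426 RPM in 16 L. Its log2 fold change of 0.78 ± 0.48 had an adjusted p of 0.285, and the other 12 MT genes overlapped in RPM.

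Without 16 L replicates 18 and 19, a choice made after the data were seen, 2 MT genes were called lower in 16 L. The log2 fold change was −2.23 for mt-Cytb (adjusted p = 0.000104) and −1.24 for mt-Co1 (adjusted p = 0.0037). In that fit 59.6% of 10562 genes were called, so calls were common among all genes. The remaining 16 L libraries are those with mt-Nd1 as the leading gene and with oviduct markers at 889 to 2463 RPM against 130 to 162 RPM in 16 C. The part of those markers in the 2 calls was not tested. The MT share of these 3 libraries was 0.548% ± 0.093.

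The test of the difference between the diet effects at 16 and 4 weeks (edgeR interaction term) called none of the 12 MT genes tested, where 3.66% of 12235 genes were called. At an unadjusted p under 0.05 there were 3 of the 12, mt-Nd2, mt-Co1 and mt-Atp8, where 23.4% of all genes passed that rule. DESeq2 called 0, and limma-voom called 2, with 18.7% of all genes. The difference in log2 fold change was 1.47 ± 0.53 for mt-Nd2 (adjusted p = 0.0957) and −1.58 ± 0.66 for mt-Co1 (adjusted p = 0.146).

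Nuclear genes that act on mitochondrial DNA and RNA were described beside the members, from a list of 48 (transcription, maintenance, RNA processing and decay). In the low weight gainers against 16-week HFD, 5 of 46 tested were called higher and 2 lower, a smaller share than the 20.7% of all genes called there, with a median log2 fold change of 0.05. The 7 are named for what they do, not as a change of the list. Higher were Elac2 (1.48 ± 0.25, adjusted p = 0.0016), which cuts tRNAs out of the precursors, Peo1 (1.21 ± 0.23, adjusted p = 0.00291), the helicase Twinkle of mtDNA replication, Tbrg4 (1.56 ± 0.32, adjusted p = 0.00386), a FASTK family protein of mitochondrial RNA, its relative Fastk (1.58 ± 0.34), and Supv3l1 (0.91 ± 0.31), a helicase of mitochondrial RNA decay. Lower were Tfb2m (−0.98 ± 0.26), a mitochondrial transcription factor, and 1810035L17Rik (−0.84 ± 0.27), now named Slirp, which binds mitochondrial mRNA. Leaving out each library in turn gave 4 to 5 higher and 0 to 3 lower. Genes with 10 counts in every library gave 1 higher and 2 lower of 33, and a fit of all 34 libraries gave 2 higher and 0 lower. In the other comparisons edgeR called at most 2 members of this list with all libraries. In 16 L against 16 C this rose to 1 higher and 8 lower with DESeq2, and 9 and 21 of 46 with limma-voom. It was 6 and 13 without 16 L replicate 18, and 9 and 20 of 44 without 16 L replicates 18 and 19. Calls were common among all genes there, at 63.8% with limma-voom and 59.6% without replicates 18 and 19. The shares of all genes called in the other alternative fits are not given here, so these counts are no result about the list.

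Of 75 nuclear subunits of the respiratory complexes and complex V, 25 were called lower and 3 higher in the same comparison, where 9.93% of all genes were called lower and 20.7% either way. The median log2 fold change was −0.54. The 25 comprised 12 of 36 subunits of complex I, 3 of 9 of complex III, 4 of 11 of complex IV, 6 of 15 of complex V and 0 of 4 of complex II. Differences between the complexes were not tested. The smallest p belonged to Ndufb4 of complex I (−1.0005 ± 0.24), Uqcrb of complex III (−1.18 ± 0.28) and Cox7c of complex IV (−1.17 ± 0.29), with adjusted p of 0.00846, 0.00894 and 0.0102. Higher were Atp5a1 (0.84) and Atp5d (0.81) of complex V and Cyc1 (0.82) of complex III. The count was unstable, at 2 to 31 lower when each library was left out in turn. It was 2 without low weight gainer replicate 23, 5 without 21, 5 without 22, and 12 without 16-week HFD replicate 14. With library totals alone it was 11, and 0 in a fit of all 34 libraries. Far fewer of all genes were also called without low weight gainer replicate 23, as given above. The shares of all genes called in the other fits are not given here. Against 16-week CD, edgeR called 0 of 75 in the low weight gainers. The median log2 fold change was −0.09 there and −0.08 over all genes. In 16 L against 16 C edgeR called 1 higher and 2 lower, and the median was −0.54, against 0.27 over all genes. By limma-voom 5 were called higher and 49 lower there, where 63.8% of all genes were called. In 16-week HFD against CD edgeR called 0 of 75, DESeq2 2 and limma-voom 0. The median log2 fold change was 0.48, with 0.30 by limma-voom, 0.20 with library totals alone and 0.14 without CD replicates 1 and 2.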

How the data were processed

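CC libraries were analysed from 1 table of whole-number read counts per gene and library that the authors deposited, without normalization (GRCm38 coordinates). The submitters' processing notes name Trim Galore 0.4.2 and HISAT2 2.0.5. The counting program, its annotation and its handling of reads that match several places are not given in the sources used here. Groups and replicate numbers came from the sample labels, which give about 50 cells of a cumulus-oocyte complex per library. The methods of the study describe collection per animal. The members and gene lists were chosen with earlier results of these data known.

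Totals were 1104611 to 13207018 counts per library. Of 72 pairs of replicates 0 were identical, and all differed by more than counting noise (chi-square divided by its degrees of freedom at least 2.96). All genes were fitted in R 4.3.3 with edgeR 4.0.16 (TMM, filterByExpr, robust quasi-likelihood F-test, two-sided, the groups of a comparison only), with Benjamini-Hochberg adjustment over all genes tested and a threshold of 0.05. The SE is the log2 fold change divided by the root of F. The fit was tested on simulated data. RPM is counts scaled to a library total of 1000000. Alternatives were DESeq2 1.42.0, limma 3.58.1 voom with quality weights, RLE factors, library totals, normalization by nuclear genes, other filters, all 34 libraries in a fit, an unadjusted p, and each library left out. Leaving out 16 L replicates 18 and 19, leaving out 16-week CD replicates 1 and 2, summing only the 7 genes with many counts, and leaving libraries out of the pooled mt-Atp8 and mt-Co3 counts were added after the data were seen.

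Nuclear copies were found with BLAST+ 2.17.0 (megablast) among GENCODE M21 transcripts outside MT, and windows of 50 bases were matched exactly on either strand. All 13 MT genes were named. Of the nuclear lists, genes called or among the 3 smallest p of a comparison could be named, and markers of other cells were given as sums. The lists were 48 genes of mtDNA expression, 75 nuclear subunits, markers of cumulus cells, oocytes, oviduct epithelium, leukocytes, red blood cells, and theca and stroma, and stress genes. The planned share of rRNA in MT counts could not be computed, because the table rows on MT hold no rRNA.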

Additional observations from a re-analysis of the deposited data

Results flagged for a closer look

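In each group of 4 to 10 libraries, the MT share and the RPM of each MT gene were searched for a library far from the others by Dixon's criterion. The rate of about 1 in 20 by chance holds for independent values with a normal spread. It does not apply here, since the MT share sums the genes and some sets are nearly all 0. Of 70 sets of values, 20 held a library far from the others. Of these, 9 concerned 16 L replicate 19, which stood above the rest of its group in the MT share (4.71%) and in mt-Co1 (22506 RPM), mt-Cytb (11845 RPM), mt-Nd5 (3593 RPM), mt-Atp6 (185 RPM), mt-Atp8 (142 RPM), mt-Co2 (69.8 RPM), mt-Co3 (66.1 RPM) and mt-Nd4l (7.96 RPM). Its group was at 0 RPM for mt-Atp8 and mt-Nd4l in the other 4 libraries. The 4-week HFD replicate 13 stood above its group in 3 of the genes with few counts, namely mt-Atp6 (666 RPM), mt-Co2 (130 RPM) and mt-Nd4l (11.0 RPM). The 4-week CD replicate 8 was high in mt-Nd2 (5079 RPM), and it had the highest MT share of all libraries.

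The remaining cases concerned genes with few counts. They were mt-Co2 in 16-week CD replicate 2 (24.2 RPM) and 16-week HFD replicate 12 (9.20 RPM), mt-Atp8 in 4-week CD replicate 11 (12.0 RPM) and 16-week HFD replicate 6 (11.9 RPM), mt-Co3 in 16-week HFD replicate 15 (16.8 RPM), mt-Nd3 in 4-week HFD replicate 14, which was low (2.29 RPM), and mt-Nd4l in 16-week HFD replicate 15 (0.24 RPM, 1 count).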

How the results depend on the processing

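The number of MT genes called moved with several choices. In 16 L against 16 C, 0 calls became 4 with limma-voom, 1 with library totals alone, 2 with all 34 libraries in a fit and 2 without replicates 18 and 19. In 4-week HFD against CD, 0 became 1 at an unadjusted p and 2 with limma-voom. In 16-week HFD against CD, 0 became 1 at an unadjusted p, 1 with DESeq2, 1 with library totals alone, and 0 to 1 when a library was left out. In the low weight gainers against 16-week HFD, 7 became 1 with all 34 libraries, and 4 to 8 when a library was left out. Against 16-week CD, 0 became 9 at an unadjusted p, with mt-Atp8 among them, 4 with DESeq2 and 2 with limma-voom. In the difference of diet effects, 0 became 3 at an unadjusted p, 2 with limma-voom, 1 with library totals alone, and 0 to 1 when a library was left out. The cause of these changes was not tested. Normalization by nuclear genes changed none of these counts by more than 1.5 times.

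When each library was left out, the direction of the log2 fold change turned at least once for 7 of 9 MT genes tested in 16 L against 16 C, 5 of 11 at 4 weeks, 5 of 11 at 16 weeks and 5 of 12 in the difference of diet effects. It turned for 0 of 10 in either comparison of the low weight gainers. These include mt-Co3 against 16-week HFD and mt-Atp8 against 16-week CD. Both had almost no counts in the low weight gainers and could hardly turn. None of the genes that turned had passed the test. In 16 L against 16 C with limma-voom the log2 fold change was −0.047 for mt-Nd1, −1.34 for mt-Co1 and −0.51 for mt-Nd5. Without 16 L replicate 19 it was −0.16 for mt-Nd1, within a range of −0.16 to 0.56 when each library was left out, and the ranges were −0.99 to 1.83 for mt-Co1, −0.44 to 1.68 for mt-Nd5 and −1.46 to 0.10 for mt-Cytb. Without replicates 18 and 19 it was −1.24 for mt-Co1 and −0.37 for mt-Nd5. With library totals alone mt-Cytb was at 0.59. The difference in MT share turned from 0.61 to −0.12 percentage points at 4 weeks without CD replicate 2, and from 0.83 to −0.0092 in 16 L against 16 C without 16 L replicate 19. That between low weight gainers and 16-week HFD was −0.68 percentage points, and −0.96 when the 50 most abundant nuclear genes were left out of the denominator, which shrinks it. When each library was left out, it lay between −0.75 and −0.61. Using the 13 protein-coding genes alone is the same as the main share here, and alternatives for rRNA could not be run. No paired analysis was possible because the groups compared share no replicate numbers.

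Depth limits the 6 genes with few counts, where 0 counts allow up to 2.72 RPM in the shallowest library.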
